A study of Homo sapiens with 8 samples.

Results

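The transcripts that carry a cell through S phase, G2 and mitosis were followed in MV4-11 cells, a human acute myeloid leukemia (AML) cell line with FLT3-ITD and MLL-AF4. The set was fixed by gene symbol and holds 10 genes, which are the cyclins CCNE1, CCNE2, CCNA2, CCNB1 and CCNB2, the kinases CDK1 and CDK2, and the phosphatases CDC25A, CDC25B and CDC25C. All 10 were found among the 26364 rows of the expression table, and all 10 passed the filter on low values that left 14151 genes for testing. RNA-seq was available for 8 libraries in 4 groups of 2: DMSO (vehicle), TCP at 5 µM (tranylcypromine, an inhibitor of the histone demethylase LSD1), palbociclib at 0.5 µM (Palbo, an inhibitor of CDK4 and CDK6), and both molecules (PTCP). The labels give 4 days of treatment, whereas the methods of the study describe palbociclib alone for the first day, so the length of TCP alone was not settled. Every group is the same cell line, and no label says that the 2 libraries of a group came from separate cultures, so p-values measure the spread between these libraries, which may be technical. In bulk RNA, fewer cells in a phase and less RNA per cell cannot be told apart.

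Cyclins switch on cyclin-dependent kinases (CDK) at set times of the cycle. CDK4 and CDK6 release E2F factors from RB, E2F then drives CCNE1, CCNE2 and CDC25A, cyclin E joins CDK2 at the entry into S phase, cyclin A takes over through S phase and G2, and cyclin B with CDK1 starts mitosis. CDC25 phosphatases remove the inhibitory phosphates that WEE1 and PKMYT1 place on these kinases. Many transcripts of the late phases share a CCAAT box and a cell cycle homology region close to the start of transcription, which the DREAM complex holds silent in resting cells and the MYBL2 and FOXM1 complexes use later.

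Promoter stretches are shown as a description of the letters. In PTCP the call rule separated the cyclin E transcripts from the other 8, and whether the letters bear on that was not tested. RefSeq promoter windows (GRCh38.p14) were matched for 8 of the 10 genes, with 15 windows in all, and not for CCNE2 and CDK2. The 100 bases before each start were searched on both strands for a cell cycle homology region (TTTGAA, also TTTAAA, also TTCGAA, also CTTGAA), for the letters CCAAT of the box of that name, and for an E2F site (TTTCCCGC, also TTTGGCGC, also TTTCGCGC, also TTTGCCGC). Capitals mark the matches, which appear as ATTGG where the CCAAT box lies on the other strand, and no match overlapped another. Each stretch is printed in the direction of transcription.
CCNE1 (chr19:29811891-29811990, + strand): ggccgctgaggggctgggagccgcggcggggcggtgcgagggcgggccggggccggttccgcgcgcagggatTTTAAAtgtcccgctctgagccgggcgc
CCNA2 (chr4:121823884-121823983, − strand): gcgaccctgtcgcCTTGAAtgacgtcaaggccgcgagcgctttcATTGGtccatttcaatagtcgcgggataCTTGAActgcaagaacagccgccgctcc
CCNB1 (chr5:69167050-69167149, + strand): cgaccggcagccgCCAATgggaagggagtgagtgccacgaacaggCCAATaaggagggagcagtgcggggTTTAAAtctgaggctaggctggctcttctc
CCNB2 (chr15:59105046-59105145, + strand): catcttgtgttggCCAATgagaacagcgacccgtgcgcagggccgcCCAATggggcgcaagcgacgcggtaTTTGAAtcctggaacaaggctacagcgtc
CDC25A (chr3:48188418-48188517, − strand): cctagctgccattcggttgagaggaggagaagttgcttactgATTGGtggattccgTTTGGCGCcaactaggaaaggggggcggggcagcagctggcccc

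A cell cycle homology region together with a CCAAT box was found for 6 of the 8 genes with a window, namely CCNA2, CCNB1, CCNB2, CDC25B, CDC25C and CDK1, in 6 of the 15 windows. Both were present in 2.15% of all 35116 promoters searched in the same way. A cell cycle homology region was found in 7 of the 15 windows and in 11.3% of all promoters, and a CCAAT box in 8 of the 15 and in 18.1%. In CCNB1 and CCNB2 the spacing was nearly the same: the homology region began 30 and 29 bases before the start, and the CCAAT boxes 87 and 55 bases before it in CCNB1 and 87 and 54 in CCNB2. The stretch of CCNE1 held TTTAAA at 28 bases and no CCAAT box. The stretch of CDC25A held the 1 match to the E2F letters among the 15 windows (1.15% of all promoters), at 44 bases. A match is a description of the letters and not evidence of binding.

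The 8 libraries were checked before the genes were read. The 6 myeloid leukemia markers PTPRC, CD33, FLT3, SPI1, MEIS1 and HOXA9 summed to 785 to 905 TPM in every library, where TPM relate reads to gene length and add up to 1000000 per library. Within that sum the markers moved in both directions: FLT3 was at 35.0% of its DMSO level in Palbo and 30.6% in PTCP and HOXA9 at 67.6% and 60.1%, while SPI1 was at 188% and 201% and PTPRC at 171% and 163%. The methods of the study describe culture on HS-5 stromal cells, which the labels of these libraries do not mention. In most stromal markers 1 library stood apart. Without TAGLN, the other 11 of 12 stromal markers summed to 74.7 TPM in palbociclib replicate 2, with COL1A1 at 22.2 TPM, against 0.866 to 5.31 TPM in DMSO, 1.02 to 5.40 TPM in TCP, 4.79 TPM in palbociclib replicate 1 and 7.94 to 13.8 TPM in PTCP. TAGLN did not set that library apart: it was at 10.9 and 8.30 TPM in DMSO, 15.2 and 14.5 TPM in TCP, 13.4 and 14.1 TPM in Palbo, and 17.0 and 17.7 TPM in PTCP. PDGFRA and PDGFRB were highest in PTCP, under 1 TPM. POSTN was listed at 0 in every library, and 4 of the 12 stayed under 1 TPM throughout. The 10 most abundant genes held 9.12% to 9.67% of all TPM in DMSO and TCP and up to 15.8% in Palbo and PTCP, where no library was under 13.96%. TPM have a fixed sum, and the median of all genes tested was at a log2 fold change of -0.16 in Palbo and -0.22 in PTCP against DMSO. What the stromal markers or the shares of abundant genes contribute to these shifts and to the results was not tested.

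In vehicle-treated MV4-11 cells the cyclin B and cyclin A transcripts were the most abundant of the 10. In DMSO, CCNB1 (151 ± 8.33 TPM, mean ± SD, n = 2), CCNA2 (142 ± 7.86 TPM) and CCNB2 (131 ± 0.473 TPM) led, followed by CDK1 (99.2 ± 6.05 TPM) and CDK2 (99.1 ± 9.08 TPM). CCNE2, CDC25B, CDC25A and CCNE1 lay between 29.9 and 39.1 TPM, and CDC25C was lowest at 16.2 ± 0.511 TPM. The libraries of CCNB1 and CCNA2 overlapped, as did those of CDK1 and CDK2, of CCNE2 and CDC25B, and of CDC25A and CCNE1. In PTCP the order had moved: CCNB1 was still first at 54.9 ± 4.83 TPM, but CCNE2 (29.2 ± 0.0596 TPM) now stood next to CDK2 (30.9 ± 1.11 TPM), and CCNE1 (24.3 ± 4.46 TPM) overlapped CDK1 (24.2 ± 0.00631 TPM). In TCP the libraries of CCNA2 and CCNB2 overlapped, as did those of CCNE2 and CDC25B, of CDC25B and CCNE1, and of CCNE1 and CDC25A. In Palbo each of CCNB2, CCNA2, CDK2, CDK1 and CCNE2 overlapped the next in this order. The 10 transcripts together summed to 757 and 802 TPM in DMSO, 693 and 774 TPM in TCP, 400 and 359 TPM in Palbo, and 259 and 270 TPM in PTCP.

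**Figure D1:**
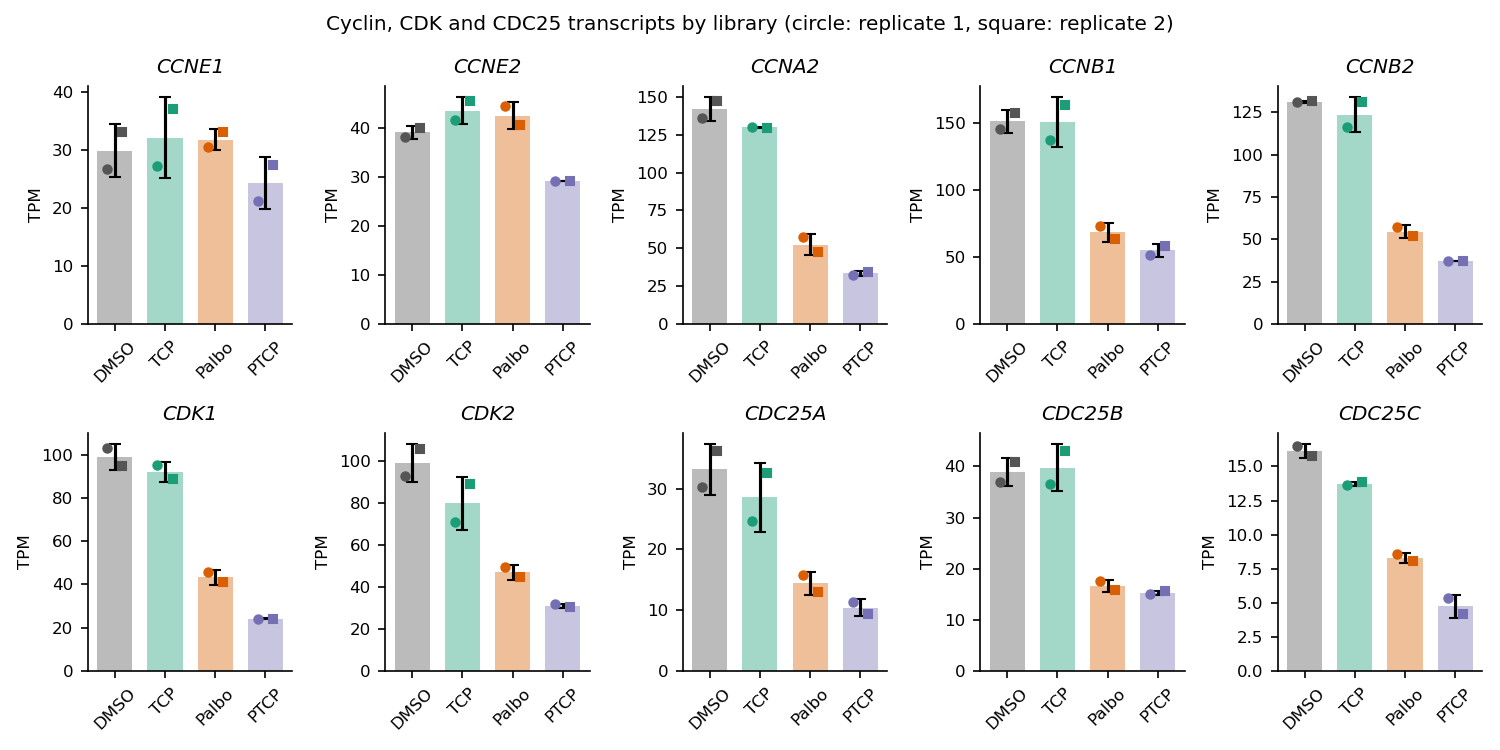
TPM of the 10 genes in each library, with a panel for each gene and an axis that starts at 0. Bars are group means, error bars are SD (n = 2), circles are replicate 1 and squares replicate 2. Both Palbo libraries sit below both DMSO libraries in 8 panels (49.7% of all genes), and both PTCP libraries do in 9 (54.2%). CCNE1 and CCNE2 in Palbo stay within or above the DMSO range.

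Palbociclib lowered most of the cyclin A, cyclin B, CDK and CDC25 transcripts, whereas neither cyclin E transcript was called. A gene was called where its log2 fold change was 1 or more in size and its limma adjusted p was below 0.01. Against DMSO, 7 of the 10 genes were called lower in Palbo and 8 in PTCP, and none was called higher. Over all genes tested, 4.56% were called lower in Palbo and 7.82% in PTCP. Both Palbo libraries lay below both DMSO libraries for 8 of the 10 genes (49.7% of all genes) and both PTCP libraries for 9 of the 10 (54.2%). The median log2 fold change of the 10 genes was -1.14 in Palbo and -1.59 in PTCP, well under the all-gene medians given above. Under scaling by median ratios 4 genes kept the Palbo call, and CCNB1 (-0.97), CDK2 (-0.90) and CDC25A (-0.99) did not. Over all genes tested, 414 were called lower in Palbo under that scaling, in place of 645. The comparisons of Palbo and PTCP with DMSO share the DMSO libraries.

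CCNE1 and CCNE2 encode cyclin E, the partner of CDK2 at the entry into S phase. CCNE1 (GRCh37, chr19:30302898-30315219, + strand) was at 26.7 and 33.1 TPM in DMSO, 27.2 and 37.1 TPM in TCP, 30.5 and 33.1 TPM in Palbo, and 21.2 and 27.5 TPM in PTCP. All 4 groups overlapped in part, except that both PTCP libraries were below both Palbo libraries. The log2 fold change against DMSO was 0.09 in Palbo (SE 0.19, limma adjusted p = 0.718, 95% interval -0.35 to 0.54) and -0.29 in PTCP (SE 0.19, adjusted p = 0.23). With 1 library left out, the PTCP value ran from -0.47 to -0.11.

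CCNE2 (GRCh37, chr8:95891998-95908906, − strand) was at 38.2 and 40.0 TPM in DMSO, 41.6 and 45.5 TPM in TCP, 44.5 and 40.6 TPM in Palbo, and 29.3 and 29.2 TPM in PTCP. Both single treatments lay above DMSO and the combination lay below it. Of the 14151 genes tested, both libraries lay above both DMSO libraries for 1749 in TCP and 3756 in Palbo. In PTCP both lay below for 54.2% of all genes. The change in Palbo was 0.12 (SE 0.09, limma adjusted p = 0.303, 95% interval -0.09 to 0.32). In PTCP it was -0.41 (SE 0.09, adjusted p = 0.0065), which is 74.7% of the DMSO level and under the fold limit for a call. With quantile normalization this value was -0.20, and with median ratios -0.18. Exons of CCNE2 overlap INTS8 on the other strand, and the strand setting of the counting was not given.

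CCNA2 encodes cyclin A2, which serves CDK2 in S phase and CDK1 in G2, and it had the lowest fitted change of the set in both Palbo and PTCP. It was at 136 and 147 TPM in DMSO, 130 and 130 TPM in TCP, 57.4 and 47.5 TPM in Palbo, and 32.4 and 34.6 TPM in PTCP. Palbo kept 37.0% and PTCP 23.7% of the DMSO level. The 4 groups did not overlap, which was not counted over all genes. The log2 fold changes were -1.42 (SE 0.10, limma adjusted p = 0.000158) and -2.05 (SE 0.10, adjusted p = 2.88e-05). The gene lies at chr4:122737599-122745038 on the − strand of GRCh37, and its exons overlap EXOSC9 on the other strand.

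The B-type cyclins, which bring CDK1 into mitosis, fell with palbociclib as well. CCNB1 (chr5:68462962-68474072, + strand) was at 145 and 157 TPM in DMSO, 137 and 163 TPM in TCP, 73.1 and 63.5 TPM in Palbo, and 51.5 and 58.3 TPM in PTCP. CCNB2 (chr15:59397325-59417244, + strand) was at 131 and 132 TPM in DMSO, 116 and 131 TPM in TCP, 57.3 and 52.1 TPM in Palbo, and 37.5 and 37.3 TPM in PTCP. For both genes, the Palbo and the PTCP libraries lay below both DMSO libraries, as for 49.7% and 54.2% of all genes. The log2 fold changes against DMSO in Palbo were -1.13 for CCNB1 (SE 0.12, limma adjusted p = 0.00056) and -1.25 for CCNB2 (SE 0.09, adjusted p = 0.000136). In PTCP they were -1.44 (SE 0.12, adjusted p = 0.000134) and -1.78 (SE 0.09, adjusted p = 2.76e-05). CCNB2 has a named pseudogene, CCNB2P1, with which the counting could have exchanged reads.

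CDK1 is the kinase of mitosis. It was at 103 and 94.9 TPM in DMSO, 95.6 and 89.1 TPM in TCP, 45.7 and 40.9 TPM in Palbo, and 24.2 and 24.2 TPM in PTCP (chr10:62538089-62554610, + strand). The log2 fold change was -1.18 in Palbo (SE 0.09, limma adjusted p = 0.00018) and -1.99 in PTCP (SE 0.09, adjusted p = 2.17e-05), that is 43.7% and 24.4% of the DMSO level. CDK2, the partner of cyclins E and A, was at 92.6 and 105 TPM in DMSO, 70.9 and 88.8 TPM in TCP, 49.4 and 44.5 TPM in Palbo, and 31.7 and 30.2 TPM in PTCP (chr12:56360565-56366573, + strand). Its log2 fold change was -1.06 in Palbo (SE 0.13, adjusted p = 0.000878) and -1.64 in PTCP (SE 0.13, adjusted p = 0.000106). Exons of CDK2 overlap PMEL on the other strand.

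The CDC25 phosphatases activate the kinases. CDC25A, which acts from the entry into S phase, was at 30.3 and 36.2 TPM in DMSO, 24.6 and 32.6 TPM in TCP, 15.7 and 13.1 TPM in Palbo, and 11.4 and 9.40 TPM in PTCP (chr3:48198636-48229907, − strand). CDC25B, which acts on CDK1 in G2, was at 37.0 and 40.9 TPM in DMSO, 36.5 and 43.1 TPM in TCP, 17.5 and 15.8 TPM in Palbo, and 14.9 and 15.6 TPM in PTCP (chr20:3767419-3786768, + strand). CDC25C, which acts at mitosis, was at 16.5 and 15.8 TPM in DMSO, 13.6 and 13.8 TPM in TCP, 8.57 and 8.04 TPM in Palbo, and 5.33 and 4.15 TPM in PTCP (chr5:137620958-137674044, − strand, with exons that overlap FAM53C). In all 3 genes both Palbo and both PTCP libraries lay below both DMSO libraries (49.7% and 54.2% of all genes). CDC25B kept 42.7% of the DMSO level in Palbo and 39.1% in PTCP, and CDC25C 51.4% and 29.3%.

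In Palbo the log2 fold changes were -1.15 for CDC25A (SE 0.18, limma adjusted p = 0.00228) and -1.18 for CDC25B (SE 0.11, adjusted p = 0.000383). CDC25C was at -0.88 (SE 0.12, adjusted p = 0.00168), under the fold limit. In PTCP all 3 were called, at -1.59 for CDC25A (SE 0.18, adjusted p = 0.000414), -1.30 for CDC25B (SE 0.11, adjusted p = 0.000153) and -1.59 for CDC25C (SE 0.12, adjusted p = 0.000114). Without palbociclib replicate 2, the library with the stromal markers, CDK2 was at -0.99 and CDC25A at -1.03 in Palbo, both near the fold limit. Neither kept its call. Without DMSO replicate 2 the values were much the same, with CDK2 at -0.97 and CDC25A at -1.03, and again neither kept its call. No call in PTCP was lost with any 1 library left out.

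**Figure D2:**
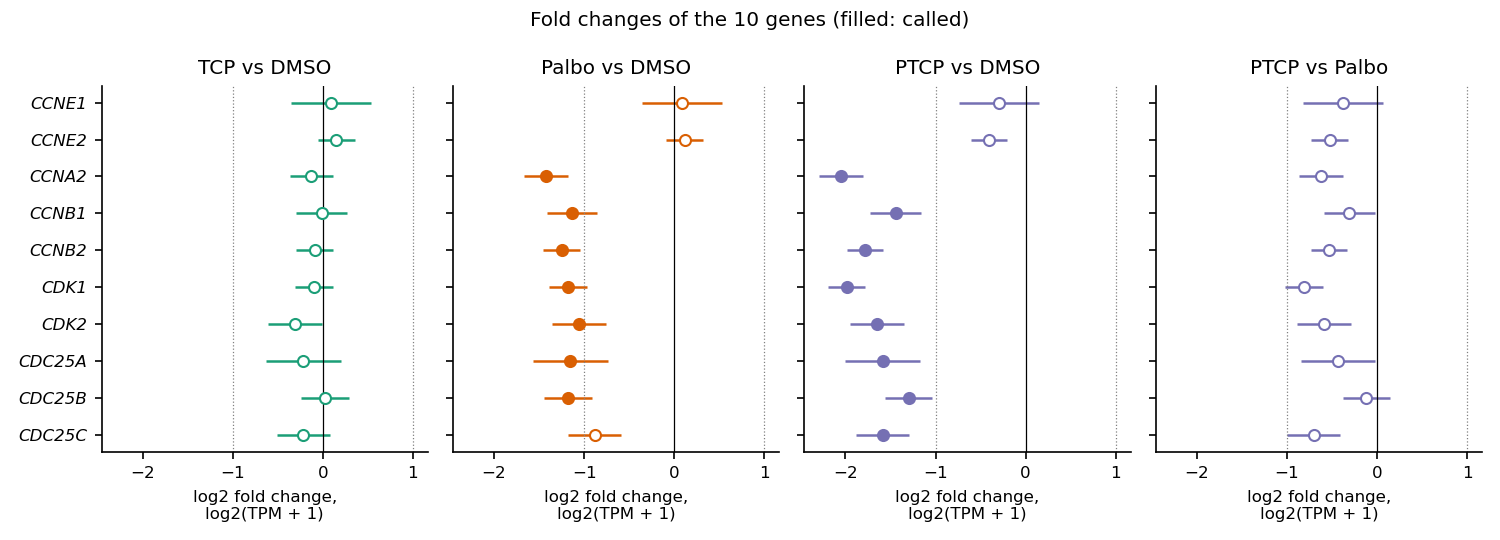
Log2 fold changes of the 10 genes on the log2(TPM + 1) scale in 4 comparisons, with 95% intervals from limma. Filled points were called, and dotted lines mark the fold limit of 1 in both directions. CCNE1 and CCNE2 sit near 0 in Palbo vs DMSO while the other 8 lie between -1.42 and -0.88, and no point is filled in TCP vs DMSO or PTCP vs Palbo.

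TCP alone called none of the 10 genes, and 0% of all genes were called lower. Their log2 fold changes ran from -0.31 to 0.15, with a median of -0.10 against -0.04 over all genes. Both TCP libraries were below both DMSO libraries for 4 genes, CCNA2, CCNB2, CDK2 and CDC25C (22.3% of all genes). They were above them for CCNE2, as for 1749 of the 14151 genes tested. CDK2, which ran from -0.47 to -0.15 with 1 library left out, was the furthest from 0, at 80.6% of the DMSO level and a log2 fold change of -0.31 (SE 0.13, limma adjusted p = 0.54, 95% interval -0.61 to -0.01). The intervals of the 10 genes reached from -0.63 at the lowest to 0.54 at the highest, so none included a change as large as the fold limit.

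When TCP was added to palbociclib, both PTCP libraries lay below both Palbo libraries for all 10 genes, which held for 37.2% of all genes. The median was -0.53 (-0.07 over all genes), 0 of 10 genes were called, and 0.0424% of all genes were called lower. Without the fold limit and at an adjusted p below 0.05, 5 of the 10 genes were lower, against 1.44% of all genes. These were CDK1 at -0.81 (SE 0.09, limma adjusted p = 0.00789), CDC25C at -0.70 (adjusted p = 0.0334), CCNA2 at -0.63 (adjusted p = 0.0277), CCNB2 at -0.53 (adjusted p = 0.0259) and CCNE2 at -0.53 (adjusted p = 0.0271). CDK2 was at -0.58 (adjusted p = 0.06), CDC25A at -0.43 (adjusted p = 0.268), CCNE1 at -0.38 (adjusted p = 0.355), CCNB1 at -0.31 (adjusted p = 0.251) and CDC25B at -0.12 (adjusted p = 0.643, 95% interval -0.38 to 0.14). The count of 5 moved with the setting, and it fell when any 1 DMSO, Palbo or PTCP library was left out. It was 4 without a filter on low values (0.576% of all genes) and 3 with median-ratio scaling (0.841%). With only the compared groups in the fit it was 1 (0.537%), and with the replicate number as a block 6 (5.08%). With 1 library left out, the median of the 10 genes ran from -0.60 to -0.46. CCNE1 ran from -0.56 to -0.20 with 1 library left out.

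The interaction term compared the step from Palbo to PTCP with the step from DMSO to TCP. No gene was called, neither among the 10 nor over all genes (0%), and 904 genes had an unadjusted p below 0.05. All 10 interaction values were negative, meaning that the step with TCP was lower in the presence of palbociclib than in its absence, and 55.7% of all genes were below 0. At an unadjusted p below 0.05 there were 5 of the 10 genes, against 3.53% of all genes that were below 0 at this p. With the replicate number as a block there were 6, against 6.46% of all genes. With 1 library left out, the median of the 10 interaction values ran from -0.50 to -0.31. CDK1 had -0.71 (SE 0.13, limma adjusted p = 0.246) and CCNE2 had -0.68 (SE 0.12, adjusted p = 0.262). CCNA2 was at -0.50 (adjusted p = 0.564), CDC25C at -0.49 (adjusted p = 0.716) and CCNB2 at -0.45 (adjusted p = 0.529).

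Compared with TCP alone, the combination was lower by the call rule in 8 of the 10 genes (6.7% of all genes), all but CCNE1 and CCNE2. The decreases ran from -1.32 for CDC25B to -1.92 for CCNA2. CCNE2 was at -0.56 (limma adjusted p = 0.00189), under the fold limit. Palbo against TCP called 5 genes lower (4.39% of all genes), namely CCNA2 (-1.30), CDC25B (-1.20), CCNB2 (-1.16), CCNB1 (-1.12) and CDK1 (-1.08). The CDK1 call was lost with quantile normalization (-0.98), with median-ratio scaling (-0.96) and without palbociclib replicate 2, the CCNB1 call without TCP replicate 2, and CDC25A was called without TCP replicate 1 (-1.13). CDC25A (-0.94, adjusted p = 0.00534), CDK2 (-0.75, adjusted p = 0.00354) and CDC25C (-0.66, adjusted p = 0.00538) were lower but under the fold limit.

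The balance between cyclin E and cyclin B was read within each library, where the scaling between libraries cancels. The ratio of summed CCNE1 and CCNE2 to summed CCNB1 and CCNB2 was 0.235 and 0.254 in DMSO, 0.272 and 0.281 in TCP, 0.575 and 0.637 in Palbo, and 0.567 and 0.592 in PTCP. The 4 libraries with palbociclib were 2.28-fold higher than the 4 without, with no overlap. The exact two-sided permutation p was 0.0286, the smallest that 4 against 4 allows, and 0.0857 when adjusted over the 3 ratios tested. Permuted within replicate numbers, the exact p was 0.0556. Each side pools 2 treatments of 2 libraries, and the ratio is built from genes whose changes are given above, so it is not separate evidence.

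The ratio of CDK2 to CDK1 was 0.895 and 1.11 in DMSO, 0.742 and 0.997 in TCP, 1.08 and 1.09 in Palbo, and 1.31 and 1.25 in PTCP. The groups with and without palbociclib overlapped in this ratio (1.27-fold, exact permutation p = 0.0857, adjusted p = 0.129). For CDC25B to CDC25C the values were 2.24 and 2.59 in DMSO, 2.68 and 3.11 in TCP, 2.04 and 1.97 in Palbo, and 2.80 and 3.76 in PTCP. Both Palbo libraries lay below every library without palbociclib, while both PTCP libraries lay above both DMSO libraries. The test pooled Palbo with PTCP (0.966-fold, exact permutation p = 0.8, adjusted p = 0.8). Opposite moves can cancel in it, so it cannot show that palbociclib left this ratio unchanged.

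**Figure D3:**
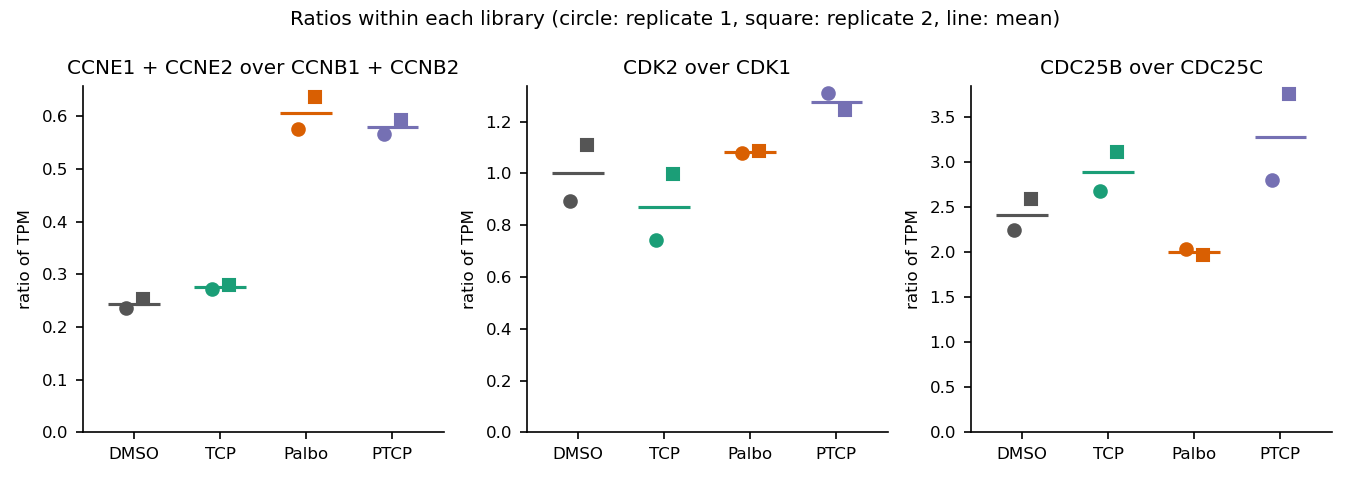
Ratios of TPM within each library for cyclin E over cyclin B, CDK2 over CDK1 and CDC25B over CDC25C. Circles are replicate 1, squares replicate 2 and lines group means. The cyclin E to cyclin B ratio lies between 0.235 and 0.281 in the libraries without palbociclib and between 0.567 and 0.637 in those with it.

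The transcripts other than cyclin E moved together over the 8 libraries. Pearson's r of each gene with the mean of the other 9 on the log2(TPM + 1) scale was 0.961 to 0.996 for these 8 genes, 0.697 for CCNE2 and 0.496 for CCNE1. The points share 4 treatments and their libraries, so these values are a description. Outside the set, the 5 genes with the highest r among 11098 candidates of at least 5 TPM on average were RFC4 (r = 0.999), HMMR (0.998), CDC45 (0.998), TRIP13 (0.998) and SKA3 (0.998). RFC4, which loads the replication clamp, averaged 74.2 TPM in DMSO, 71.6 TPM in TCP, 35.9 TPM in Palbo and 25.0 TPM in PTCP. CDC45, part of the replicative helicase, averaged 44.5 TPM in DMSO, 19.9 TPM in Palbo and 12.1 TPM in PTCP.

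The proteins that control these complexes were taken from lists of 47 genes, of which 46 were tested and CCNB3 was too low. Against DMSO, TCP called 0 of the 46, palbociclib called 8 lower (4.56% of all genes) and PTCP called 17 lower (7.82% of all genes), with none higher. PTCP against Palbo called 0 of the 46 (0.0424% of all genes), PTCP against TCP 13 (6.7%) and Palbo against TCP 7 (4.39%). The median log2 fold change of the 46 was -0.51 in Palbo and -0.70 in PTCP, against -0.16 and -0.22 over all genes. The count in Palbo against DMSO was 4 with median-ratio scaling, where 414 of all genes tested were called lower in place of 645. In Palbo against TCP it was 4 with only the groups compared in the fit, where 338 were called lower in place of 621.

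Of the 5 brakes on CDK activity, 1 was called lower in Palbo (4.56% of all genes) and 2 in PTCP (7.82%), and none was called higher. WEE1, the kinase that blocks CDK1 and CDK2, was at 33.7 and 39.8 TPM in DMSO, 33.9 and 34.9 TPM in TCP, 15.6 and 15.3 TPM in Palbo, and 10.3 and 11.4 TPM in PTCP. It was called lower at -1.19 in Palbo (limma adjusted p = 0.00032) and at -1.67 in PTCP (adjusted p = 5.7e-05), as were its targets CDK1 and CDK2. PKMYT1, the membrane-bound relative of WEE1, was at -0.74 in Palbo, under the fold limit, and was called at -1.31 in PTCP. The CDK inhibitor genes were not called: CDKN1A was at -0.60 and -0.28 with an SE of 0.34 and CDKN1B at -0.53 and -0.69. CDKN1C was the 1 brake with higher values, at 1.83 and 1.34 TPM in DMSO, 2.72 and 1.70 TPM in TCP, 2.72 and 2.95 TPM in Palbo, and 3.38 and 4.14 TPM in PTCP. It was at 238% of the DMSO level in PTCP with a limma adjusted p of 0.00979, but at these low levels the log2(TPM + 1) change was 0.88, under the fold limit.

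Of the 11 activators and mitotic entry factors, 1 was called lower in Palbo and 5 in PTCP, beside 4.56% and 7.82% of all genes. PLK1, the polo-like kinase that promotes mitotic entry, was at 123 and 146 TPM in DMSO, 121 and 161 TPM in TCP, 48.8 and 51.9 TPM in Palbo, and 33.8 and 44.5 TPM in PTCP, with log2 fold changes of -1.40 and -1.77. CKS1B, a small subunit of CDK complexes, was at -0.96 in Palbo and was called at -1.73 in PTCP. Its paralog CKS2 was at -0.40 and -0.86 and the mitotic kinase gene AURKA at -0.55 and -0.84, neither called. Of the 3 subunits of the CDK-activating kinase, MNAT1 was called in PTCP at -1.04 (limma adjusted p = 0.00038, 47.2% of the DMSO level) and not in Palbo (-0.57), and CDK7 and CCNH were called in neither.

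Among the 11 genes of cyclin destruction, 4 were called lower in Palbo and 5 in PTCP, where all genes gave 4.56% and 7.82%. CDC20, which directs the anaphase-promoting complex to cyclin B in mitosis, was at 139 and 168 TPM in DMSO, 129 and 185 TPM in TCP, 57.7 and 56.9 TPM in Palbo, and 40.7 and 48.5 TPM in PTCP (-1.40 and -1.76). FZR1, the other activator of that complex, which works in G1, was at -0.30 and -0.38 and was not called. UBE2C, the ubiquitin-conjugating enzyme of the complex, was called at -1.08 and -1.66, and CCNF, an F-box protein, at -1.01 and -1.44. FBXO5, an inhibitor of the complex, was at -0.84 in Palbo and called at -1.27 in PTCP. SKP2, the F-box protein that targets CDKN1B, was at -0.34 and -0.87 without a call.

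Of the checkpoint kinases upstream of CDC25, CHEK1 alone was called of 5 tested, in both comparisons. Over all genes, 4.56% were called lower in Palbo and 7.82% in PTCP. It had the largest decrease of the lists, from 41.1 and 43.1 TPM in DMSO and 38.1 and 40.3 TPM in TCP to 15.6 and 12.1 TPM in Palbo and 8.91 and 8.05 TPM in PTCP. Its log2 fold changes were -1.55 (SE 0.13, limma adjusted p = 0.000248) and -2.19 (SE 0.13, adjusted p = 4.03e-05). Of the 12 genes that act in transcription of the G2 and M genes, 1 was called lower in Palbo and 4 in PTCP, with 4.56% and 7.82% of all genes. FOXM1 was called at -1.15 and -1.63, and MYBL2 was at -0.90 in Palbo and called at -1.64 in PTCP. The subunits of NF-Y, which binds the CCAAT box, were not called and lay between -0.50 and -0.19 in Palbo. In PTCP they lay between -0.71 (NFYB) and -0.28 (NFYC).

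The near relatives were not called. CCNA1, the A-type cyclin best known from the germ line, was at 24.2 and 26.1 TPM in DMSO, 31.7 and 28.2 TPM in TCP, 17.1 and 14.3 TPM in Palbo, and 22.9 and 18.4 TPM in PTCP. Its log2 fold change was -0.65 in Palbo and -0.28 in PTCP. Its TCP libraries lay above DMSO (limma adjusted p = 0.692) and its PTCP libraries above Palbo (adjusted p = 0.231). Of the 14151 genes tested, these orders held for 1749 and 2343. In CCNA2 the libraries with TCP lay below in both steps, orders that held for 22.3% and 37.2% of all genes.

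**Figure D4:**
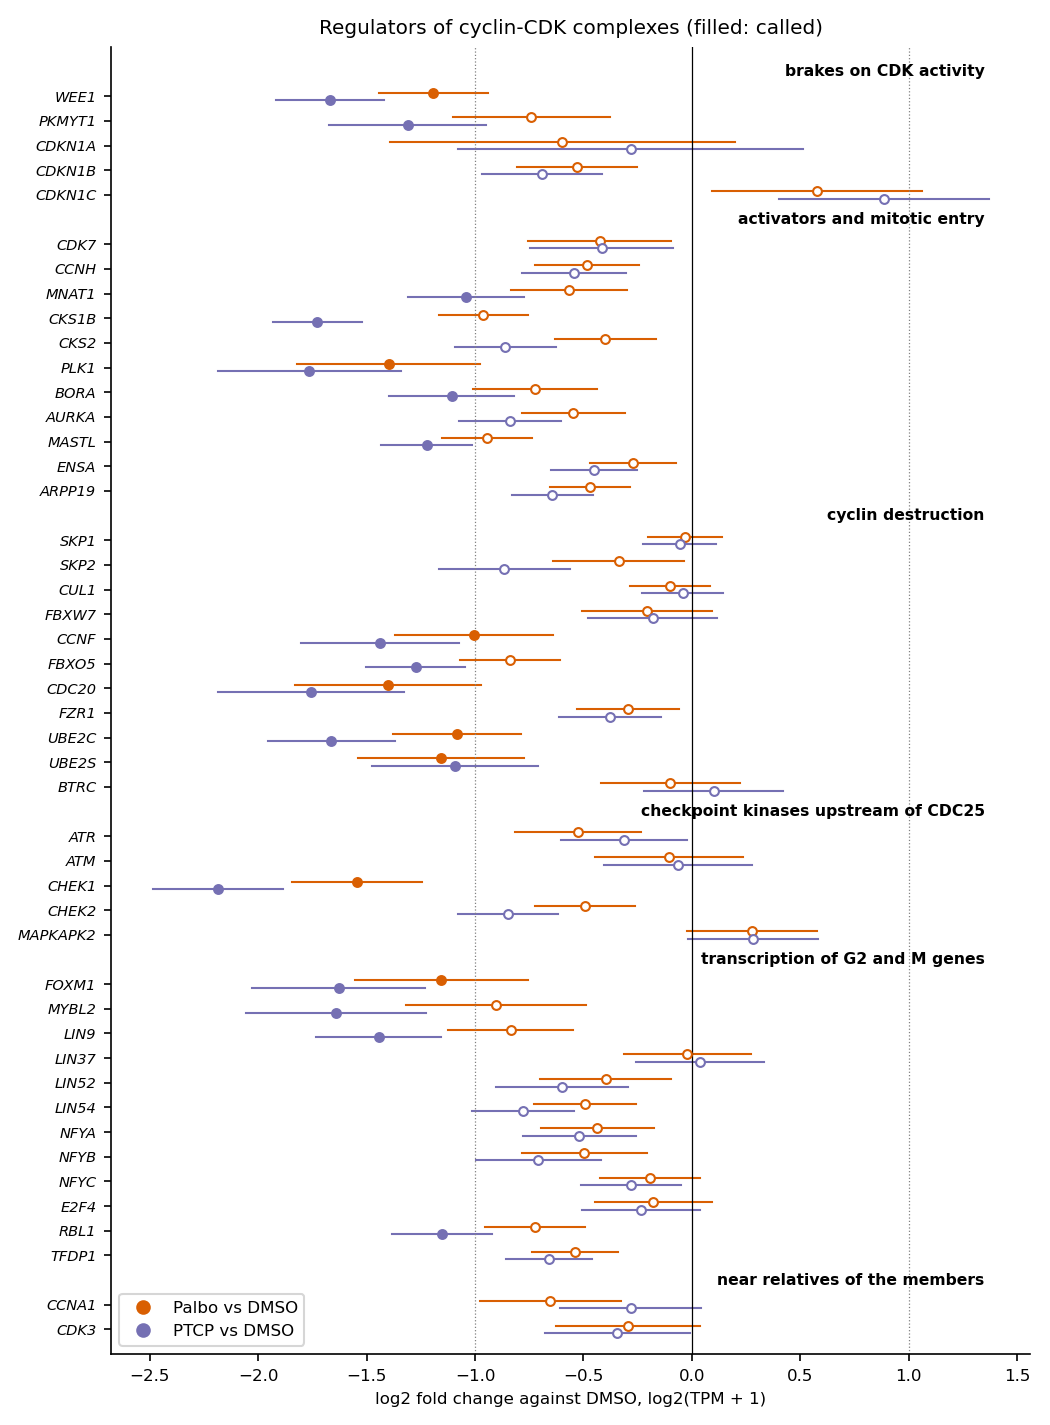
Log2 fold changes against DMSO of the 46 tested regulators, grouped by role, in Palbo and in PTCP, on the log2(TPM + 1) scale with 95% intervals from limma. Filled points were called, 8 in Palbo and 17 in PTCP, all of them below 0, and dotted lines mark the fold limit of 1. CHEK1 lies furthest to the left at -2.19 in PTCP, and the highest point is CDKN1C at 0.88.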

How the data were processed

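RNA-seq of 8 MV4-11 libraries was analysed from deposited TPM. The authors aligned reads to hg19 (GRCh37) with subread-align, counted them with featureCounts 1.6.4 and converted the counts to TPM; SAMtools 1.9 and DESeq2 1.26.0 are also listed in the submitters' processing notes. The annotation, gene lengths and strand setting were not given in the sources used here. TPM sum to 1000000 in every library, so depth is unknown and no counting interval is given. Libraries were grouped by their treatment labels. Genes that reached 1 TPM in 2 or more libraries were tested on log2(TPM + 1), which understates changes of low genes, with limma 3.58.1 (R 4.3.3), 1 coefficient per group over all 8 libraries, 4 residual degrees of freedom, a mean-variance trend and Benjamini-Hochberg adjustment over all genes tested in each of 7 comparisons. Levels were compared between genes only as TPM, which are per length. A permutation test of 2 against 2 libraries cannot go below p = 0.333, so none is given for single genes. The 3 ratios were tested with exact two-sided permutation tests of log2 values. The test was checked on simulated data.

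The 10 genes, the regulator lists and the markers were chosen with earlier results of these data known. Named genes were the 10 genes, 17 regulators picked by role, the 3 regulators with the largest called change in each treatment with palbociclib, and the 5 genes with the most similar pattern; CDKN1C, CCNA1, CDK7, CCNH, MNAT1 and the NF-Y genes were named after their values were seen. Gene positions are from a GRCh37 annotation that need not be the one the authors used, and promoter letters are from RefSeq on GRCh38.p14. Alternatives changed the pseudocount, the filter, the scaling, the samples in the fit, the trend, the threshold and the replicate block, and left out each library.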

Additional observations from a re-analysis of the deposited data

Results flagged for a closer look

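CCNE2 differed in the order of its libraries with TCP, without and with palbociclib. Both TCP libraries (41.6 and 45.5 TPM) were above both DMSO libraries (38.2 and 40.0 TPM), and both PTCP libraries (29.3 and 29.2 TPM) were below both Palbo libraries (44.5 and 40.6 TPM). Over the 14151 genes tested, the first order held for 1749 and the second for 5258 (37.2%). How many genes held both orders was not counted. The interaction was -0.68 on the log2 scale (SE 0.12, limma adjusted p = 0.262), so it did not pass after adjustment over all genes. Neither did the step from DMSO to TCP, at 0.15 (adjusted p = 0.693, 95% interval -0.05 to 0.35). Leaving out each library gave -0.74 to -0.61.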

How the results depend on the processing

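The 8 calls in PTCP against DMSO and the 8 in PTCP against TCP were made under every alternative run, and TCP alone, PTCP against Palbo and the interaction called none of the 10 genes under any. In Palbo against DMSO, median-ratio scaling left 4 of 7 calls, and quantile normalization 6. The calls of CDK2 and CDC25A were also lost without palbociclib replicate 2 and without DMSO replicate 2. For the regulators, Palbo against DMSO gave 4 calls in place of 8 with median-ratio scaling and 3 to 8 with a library left out, and Palbo against TCP gave 4 in place of 7 with only the groups compared and 4 to 9 with a library left out. The cause was not tested. Changes near 0 turned sign without a call in either direction. CCNE2 in Palbo against TCP was at 0.0758 with quantile normalization and 0.0835 with median ratios, and CCNB1 in TCP against DMSO at 0.0349 with median ratios. With a library left out, TCP against DMSO ran from -0.125 to 0.308 for CCNE1, from -0.136 to 0.115 for CCNB1 and from -0.0910 to 0.142 for CDC25B, Palbo against DMSO from -0.0585 to 0.241 for CCNE1, and Palbo against TCP from -0.216 to 0.217 for CCNE1 and from -0.0973 to 0.0303 for CCNE2. The log2 ratio of CDC25B to CDC25C ran from -0.236 to 0.0749.

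Over all genes, the scaling changed the split of calls: higher and lower were 643 and 645 in Palbo as deposited, 747 and 478 with quantile normalization, and 817 and 414 with median ratios, and in PTCP 830 and 1107 against 1006 and 778, and 1104 and 680. Replicate numbers were shared between groups, and with 2 pairs and no label for what they share the samples were not treated as paired. The deviations of same-numbered libraries correlated at 0.169 to 0.491 over all genes and at 0.189 to 0.895 over the 10 genes. With the replicate number as a block, 7 and 8 of the 10 genes were called in Palbo and PTCP, as without it, and the cyclin E to cyclin B ratio, permuted within numbers, had an exact p of 0.0556. The block moved the calls over all genes from 8 to 20 for TCP and from 71 to 114 for PTCP against Palbo. Other settings that kept all libraries also moved counts over all genes by more than 1.5 times: TCP (3 with median ratios, 5 with quantile normalization, 0 with only the groups compared, 36 at an adjusted p below 0.05), PTCP against Palbo (42 with the pseudocount of 0.1, 38 without a filter on genes above 0 TPM in any library, 10 with only the groups compared, 183 at an adjusted p below 0.05), Palbo against TCP (802 in place of 1304 with only the groups compared) and the interaction (7 in place of 0 without a filter). With a library left out, TCP went to 0 or 1, and PTCP against Palbo to 1 without any Palbo or PTCP library, 20 and 24 without a DMSO library and 41 without TCP replicate 2. Without palbociclib replicate 2, Palbo against DMSO went from 1288 to 783 and Palbo against TCP to 800. The counts without the fold limit were recomputed after the data had been seen. Those that moved under settings that kept all libraries are given with their results.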
